A study of Mus musculus with 6 samples.

Results

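The 7 mouse sirtuin genes and 3 genes of NAD+ synthesis, *Nampt*, *Nmnat1* and *Nmnat3*, were followed in oocytes of naturally aged mice. They were taken by symbol from the deposited expression table, which held all 10 of them among its 25631 genes. The oocytes came from 14-month-old ICR mice, an outbred stock, and were punctured from large antral follicles after an injection of equine chorionic gonadotropin, which drives follicle growth. The control mice (3 libraries, labelled as aged and untreated) drank water, and the aminophylline mice (3 libraries) drank 4.0 mM aminophylline for 1 week, then water alone for 3 weeks. Both groups thus shared age, stock and hormone injection. Aminophylline is a theophylline derivative that inhibits phosphodiesterases, the enzymes that break down cyclic AMP. How many mice or oocytes were pooled in a library was not given in the sources used here, so p-values measure the spread between these libraries only.

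Sirtuins are enzymes that remove acetyl or other acyl groups from proteins. Each reaction uses up 1 molecule of NAD+ and releases nicotinamide, so their activity depends on how fast NAD+ is made again. In the salvage route, nicotinamide phosphoribosyltransferase (Nampt) joins nicotinamide to a ribose phosphate, the rate-limiting step, and the Nmnat enzymes turn the product into NAD+, Nmnat1 in the nucleus and Nmnat3 mainly in mitochondria. Sirt1, Sirt6 and Sirt7 act mainly in the nucleus, Sirt2 mainly in the cytoplasm, and Sirt3, Sirt4 and Sirt5 in mitochondria. NAD+ is known to fall with age in mouse oocytes, and for that reason the genes are of interest in ovarian ageing.

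Because the drug acts on cyclic AMP, the promoters of the genes were searched for letters of the cyclic AMP response element, to which CREB proteins bind. Each window ran from 250 bases before to 50 bases after a RefSeq transcription start in GRCm38.p6, and the 10 genes had 13 windows. The full element, TGACGTCA, was in none of these windows, and was in 1.79% of all 32851 windows. Its core, TGACG, read on either strand (CGTCA on the other) and contained in the full element, was in windows of 4 of the 10 genes. Over all genes with a window, 23.0% held it. A stretch around each of the 4 cores is shown, 5′ to 3′ on the gene's strand, with the core in capitals. Each stretch lies entirely upstream of the RefSeq start that its window used.
Sirt1 (GRCm38, chr10:63339052-63339091, minus strand): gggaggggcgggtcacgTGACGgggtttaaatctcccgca
Sirt3 (GRCm38, chr7:140882310-140882349, minus strand): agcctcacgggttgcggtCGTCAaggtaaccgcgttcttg
Sirt4 (GRCm38, chr5:115484508-115484547, minus strand): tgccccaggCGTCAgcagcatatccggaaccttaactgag
Nampt (GRCm38, chr12:32820183-32820222, plus strand): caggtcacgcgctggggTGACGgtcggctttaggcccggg
The core began 39 bases before the start used in *Sirt1*, 22 in *Sirt3*, 241 in *Sirt4* and 135 in *Nampt*. The only *Sirt4* window (chr5:115484248-115484547) lay inside the span of the gene (chr5:115478006-115490264). The only *Nmnat3* window (chr9:98296320-98296619) likewise lay inside its span (chr9:98287433-98420533). For both genes the start used was thus internal, and the 5′ end of the span was not searched. In *Sirt1* it overlapped an E-box (CACGTG), a motif held by 8.09% of genes and by no other gene of the 10. The GC box (GGGCGG) was in windows of 9 of the 10 genes, all but *Sirt4*, and in those of 38.2% of all genes. The FOXO motif GTAAACA was in none of the 10, and in 4.05% of all genes. These matches are letters in a window and were not tested for binding.

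The libraries held 14112341 to 33641283 reads, as recovered from the FPKM values (counted fragments relative to transcript length and library total). The labelled cell type was checked with marker genes. The 10 oocyte markers all exceeded an FPKM of 1, with sums from 16353 to 23418. Of 8 stroma and theca markers 7 stayed under 1 in every library, as did 4 of 4 erythrocyte markers, 7 of 10 granulosa cell markers and 1 of 3 endothelial markers. The remaining granulosa cell markers were *Cyp19a1*, at 7.37 to 15.7, *Nr5a2*, at 4.43 to 8.53, and *Inha*, at 0.417 to 1.66. The remaining endothelial markers were *Pecam1*, at 4.87 to 6.66, and *Tek*, at 0.620 to 2.15, and the remaining stroma marker was *Dcn*, at 0.370 to 1.41. The source of these transcripts was not tested. Control library 1 stood apart in macrophage markers. The sum of the 10 markers was 221 there and 82.8 to 103 in the other libraries, with *Lyz2* at 66.4 against at most 0.573 and *Fcer1g* at 57.6 against at most 0.368. In the other libraries *C1qb* made up most of this sum, at 79.2 to 99.8, and it was lowest, at 72.3, in control library 1.

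*Sirt7* was the most highly expressed of the genes and *Nmnat3* the least. The mean FPKM over the 6 libraries was 31.9 for *Sirt7*, 9.10 for *Sirt6*, 6.58 for *Sirt3*, 6.22 for *Sirt4*, 5.06 for *Nampt*, 4.70 for *Sirt5*, 3.46 for *Sirt1*, 2.49 for *Nmnat1*, 2.29 for *Sirt2* and 0.657 for *Nmnat3*. FPKM is divided by transcript length, which allows a rough comparison of levels between genes. Reads of overlapping genes, as for *Nmnat1* below, and the counting method, which is not given, limit it. The lowest *Sirt7* value (17.9) lay above the highest value of any other member (11.6, *Sirt6*). In the ranking of the 10340 tested genes by mean FPKM, *Sirt7* stood at percentile 78.4, *Sirt6* at 56.8 and *Sirt2* at 23.3.

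**Figure D1:**
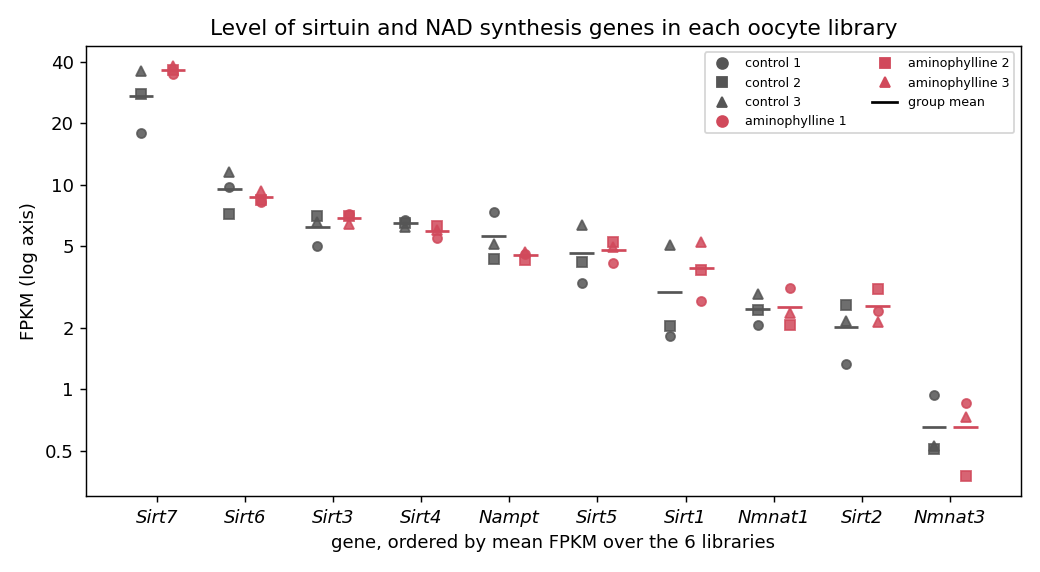
FPKM (log axis) of each gene in the 3 control (grey) and 3 aminophylline (red) libraries, with symbols for the replicate number and lines for the group means. *Sirt7* lies above all other genes in every library, from 17.9 to 38.0, and *Nmnat3* lies under 1 in all 6.

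Not all steps of this order held in every library. *Sirt7* exceeded *Sirt6* in 6 of 6 libraries, on average 3.43-fold. *Sirt6* exceeded *Sirt3* in 6 of 6 libraries (1.38-fold), and *Sirt2* exceeded *Nmnat3* in 6 of 6 (3.55-fold). For each of these 3 steps the two-sided exact permutation p, from flipping the sign of the log2 ratio within libraries, was 0.0312, the smallest that 6 libraries allow. Adjusted over the 9 neighbouring pairs by Benjamini-Hochberg, the exact permutation p was 0.0938. The pairs and their direction came from the means of these same libraries. These p-values thus describe the order and are no independent test of it. The other neighbours exchanged places in at least 1 library. *Sirt3* exceeded *Sirt4* in 5 of 6 libraries, *Nampt* exceeded *Sirt5* in 3 of 6, *Sirt1* exceeded *Nmnat1* in 3 of 6 and *Nmnat1* exceeded *Sirt2* in 4 of 6. The exact permutation p of these 4 steps ranged from 0.25 to 0.844. *Sirt4* over *Nampt* and *Sirt5* over *Sirt1* held in 5 of 6 libraries each, both with an exact permutation p of 0.0625.

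The comparison of the groups asked whether oral aminophylline changed the oocyte transcripts of these genes. In bulk samples, fewer cells of a type and less RNA per cell cannot be told apart. The 10340 tested genes reached an FPKM of 1 in 3 or more libraries, and 9 of the 10 genes did so, *Nmnat3* being the exception. None of the 9 had an unadjusted limma p under 0.05 in either direction, while 7.25% of all tested genes did. At an adjusted limma p under 0.05 the count was also 0, for these genes and for all tested genes. The count at the unadjusted threshold was likewise 0 with limma's voom on the recovered reads and with an unmoderated linear model per gene. The values of the groups overlapped for each of the 10 genes, while 12.5% of the tested genes had groups that did not overlap. The median log2 fold change of the 9 genes was 0.069, and that of all tested genes was 0.095. With the replicate number as a block, 1 of the 9 genes, *Sirt7*, had an unadjusted limma p under 0.05 and was higher. In that fit 9.88% of the tested genes were higher at the same threshold, and 47 genes, none of them among the 10, had an adjusted limma p under 0.05. Without control library 3, *Sirt7* and *Sirt1* were both higher, where 11.8% of the tested genes were.

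**Figure D2:**
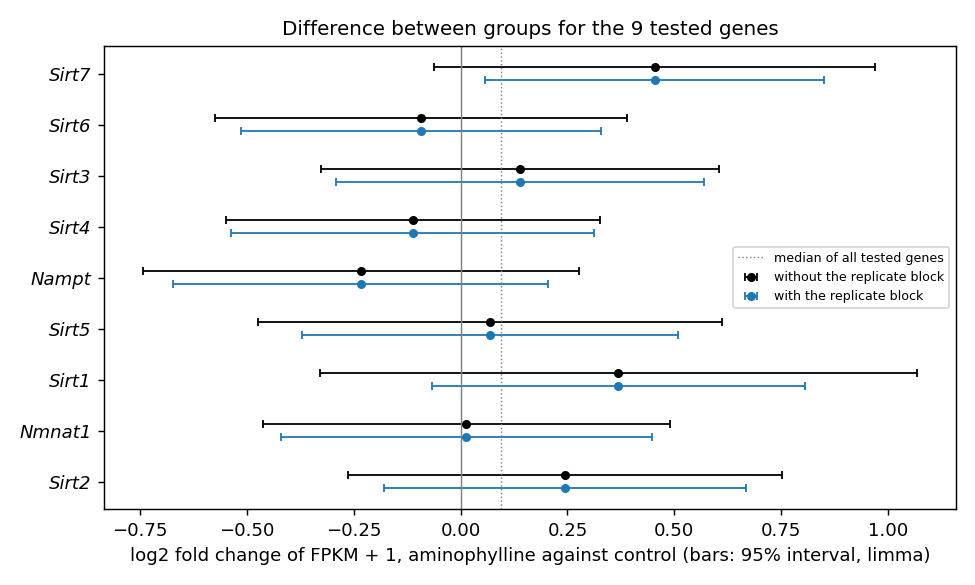
Log2 fold change of FPKM + 1 for the 9 tested genes (positive values are higher with aminophylline), with 95% intervals from limma without (black) and with (blue) the replicate block, a solid line at 0 and a dotted line at the median of all tested genes (0.095). Every black interval crosses 0, and with the block the interval of *Sirt7* runs from 0.058 to 0.85.

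*Sirt7* (NCBI gene 209011, GRCm38 chr11:120618371-120625014, minus strand) encodes a sirtuin of the nucleolus that promotes transcription of ribosomal RNA genes. FPKM values of 17.9, 27.8 and 36.3 were found without the drug, and of 34.8, 36.4 and 38.0 with aminophylline. The aminophylline libraries lay close together at the top of the range, and control library 3 lay among them while control libraries 1 and 2 lay below. The mean was 27.3 ± 9.17 (SD, n = 3) for control and 36.4 ± 1.64 (SD, n = 3) for aminophylline. The log2 fold change on the log2(FPKM + 1) scale was 0.45 with a standard error of 0.23 and a 95% interval of -0.062 to 0.97 (limma adjusted p = 0.694). Each aminophylline library was higher than the control library of the same number. The numbers are not shown to be pairs, so same-number comparisons, here and for the genes below, are a description only. With the replicate block, limma's unadjusted p was 0.0264, and the adjusted p was 0.283, the lowest of a range over the alternatives that reached 0.999. The fold change depended most on control libraries 1 and 3. With any other single library left out it ranged from 0.42 to 0.49. It was 0.68 without control library 3 (limma adjusted p = 0.287) and 0.19 without control library 1, the library with the macrophage transcripts. The part of those transcripts in the low *Sirt7* value of that library was not tested.

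*Sirt1* (NCBI gene 93759, chr10:63319005-63339035, minus strand), the deacetylase of p53, FOXO factors and histones, varied most of the 9 tested genes in the log2 values within the groups. In the control libraries its FPKM was 1.82, 2.05 and 5.06, and with aminophylline it was 2.71, 3.84 and 5.26. Library 3 was the highest of both groups and library 1 the lowest of both. The groups overlapped, since control library 3 lay above aminophylline libraries 1 and 2. These values stood for 113 to 629 reads. The mean was 2.98 ± 1.81 (SD, n = 3) and 3.94 ± 1.28 (SD, n = 3), control group first. The log2 fold change was 0.37 with a 95% interval of -0.33 to 1.07 (limma adjusted p = 0.767). Each aminophylline library again lay above the control library of the same number, and with the replicate block the interval was -0.067 to 0.81. Without control library 3 the log2 fold change was 0.72, with an unadjusted limma p of 0.0181 and an adjusted p of 0.300, the lowest over the alternatives, which reached 0.999. It was 0.17 without control library 1, 0.22 without control library 2, 0.56 without aminophylline library 1 and 0.18 without aminophylline library 3. In the ranking of the tested genes by spread within groups, *Sirt1* stood at percentile 93.7.

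**Figure D3:**
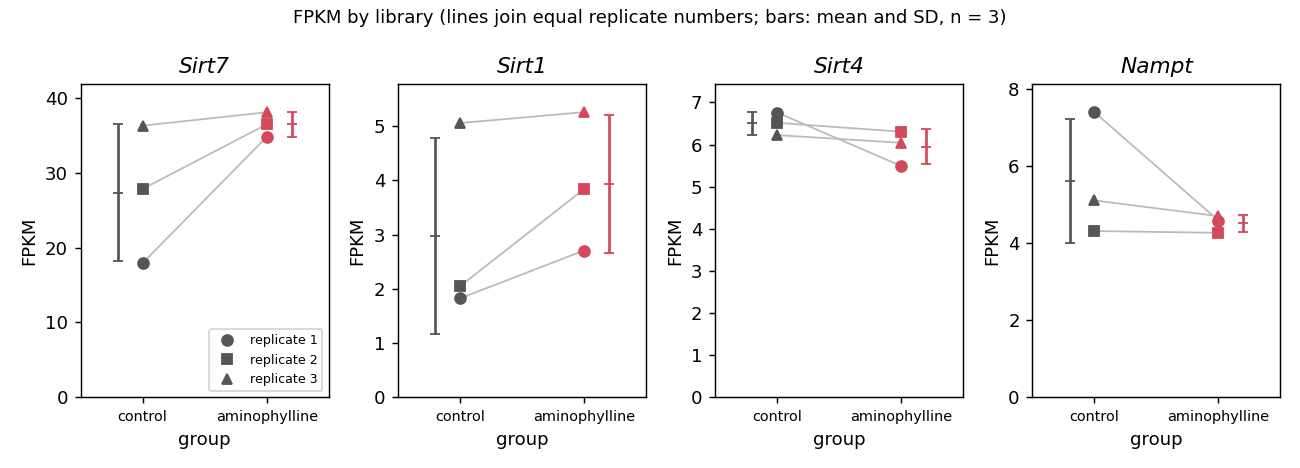
FPKM of *Sirt7*, *Sirt1*, *Sirt4* and *Nampt* in each library, with lines joining control and aminophylline libraries of equal number and bars for the mean and SD of 3 libraries. The lines of *Sirt7* and *Sirt1* all slope up from control to aminophylline, those of *Sirt4* and *Nampt* all slope down, and control library 1 is the lowest for the first pair and the highest for the second. Of the genes followed, only those plotted had all same-number comparisons in one direction. The uniform slopes thus follow from the choice of genes and are no test of the drug. How often all tested genes have such slopes was not determined.

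*Sirt6* (NCBI gene 50721, chr10:81621787-81627792, minus strand) acts in chromatin, DNA repair and telomere maintenance. FPKM values of 9.74, 7.19 and 11.6 were found without the drug, and of 8.27, 8.48 and 9.38 with aminophylline. All aminophylline values lay inside the control range. The log2 fold change was -0.093 with a 95% interval of -0.58 to 0.39 (limma adjusted p = 0.922). *Sirt2* (NCBI gene 64383, chr7:28766752-28788665, plus strand) deacetylates tubulin and the checkpoint kinase BubR1. In the control libraries its FPKM was 1.33, 2.58 and 2.16, and with aminophylline it was 2.42, 3.08 and 2.14. Only control library 1 lay below the others by a wide margin. The log2 fold change was 0.24 with a 95% interval of -0.26 to 0.75 (limma adjusted p = 0.785), and it was 0.067 without control library 1 and 0.14 without aminophylline library 2.

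The 3 mitochondrial sirtuins had levels of the same order and narrow differences between the groups. *Sirt3* (NCBI gene 64384, chr7:140863663-140882309, minus strand), the main mitochondrial deacetylase, had FPKM values of 5.03, 7.08 and 6.60 without the drug and of 7.21, 7.06 and 6.47 with aminophylline. Apart from control library 1, all libraries lay between 6.47 and 7.21. Its log2 fold change was 0.14 with a 95% interval of -0.33 to 0.60 (limma adjusted p = 0.867). Without control library 1 it was 0.013, and without control library 2 it was 0.22. *Sirt5* (NCBI gene 68346, chr13:43365389-43395203, plus strand), which removes succinyl and malonyl groups, had FPKM values of 3.32, 4.20 and 6.38 without the drug and of 4.15, 5.23 and 4.96 with aminophylline. The control libraries held both its lowest and its highest value. Its log2 fold change was 0.069 with a 95% interval of -0.47 to 0.61 (limma adjusted p = 0.951), and its sign turned with 2 of the scalings.

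*Sirt4* (NCBI gene 75387, chr5:115478006-115490264, minus strand), which restrains glutamate dehydrogenase, varied least of the 9 tested genes in the log2 values within the groups. FPKM values of 6.76, 6.52 and 6.22 were found without the drug, and of 5.49, 6.31 and 6.04 with aminophylline. Control library 3 and aminophylline library 2 lay in the other group's range, so the groups overlapped narrowly, and each aminophylline library lay below the control library of the same number. The mean was 6.50 ± 0.269 (SD, n = 3) for control and 5.95 ± 0.415 (SD, n = 3) for aminophylline. The log2 fold change was -0.11 with a 95% interval of -0.55 to 0.33 (limma adjusted p = 0.889), and -0.064 without aminophylline library 1. Limma widens this interval beyond the gene's own spread, which stood at percentile 1.53 of the tested genes. From the gene's own spread, in the unmoderated model, the interval was -0.27 to 0.051. The summed FPKM of *Sirt3*, *Sirt4* and *Sirt5* was 17.4 ± 2.08 (SD, n = 3) for control and 17.6 ± 0.886 (SD, n = 3) for aminophylline.

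*Nampt* (NCBI gene 59027, chr12:32820335-32853369, plus strand) was highest in control library 1. In the control libraries its FPKM was 7.40, 4.32 and 5.11, and with aminophylline it was 4.59, 4.27 and 4.70. The aminophylline values spanned a narrow range near the lowest control value, and each lay below the control library of its number. The mean was 5.61 ± 1.60 (SD, n = 3) for control and 4.52 ± 0.224 (SD, n = 3) for aminophylline. The log2 fold change was -0.23 with a 95% interval of -0.74 to 0.28 (limma adjusted p = 0.788). Without control library 1 it was -0.047 (95% interval -0.55 to 0.46), and without control library 2 it was -0.38. In control library 1, 8 of the 10 macrophage markers were also at their highest, among them *C1qc*, at 14.8 there and at 0 in the other 5 libraries. The part of macrophage RNA in the *Nampt* value was not tested.

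*Nmnat1* (NCBI gene 66454, chr4:149467569-149485210, minus strand) had FPKM values of 2.05, 2.43 and 2.93 without the drug and of 3.11, 2.06 and 2.37 with aminophylline. The groups covered almost the same range. Its log2 fold change was 0.014 with a 95% interval of -0.46 to 0.49 (limma adjusted p = 0.990), and its sign turned with 3 of the scalings. In RefSeq its span holds *Tmem274* over 5914 bases, which had an FPKM of 4.62 to 7.53, and it shares 26 bases with *Lzic*. Whether the counting used strand was not given in the sources used here, so reads of such neighbours cannot be told apart from it. The same holds for the lncRNA *Gm42007* within *Sirt4* and for 69 bases that *Sirt3* shares with *Ric8a*. RefSeq also places *Gm19897* over 6616 bases of *Sirt2* and *Gdap10* over 2804 bases of *Nampt*. *Nmnat3* overlaps *Gm46126* (2458 bases) and the pseudogene *Gm28530* (4097 bases). Of these only *Gm46126* had FPKM values, at most 0.133. Genes of short RNAs overlap *Sirt4* and *Sirt7*.

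*Nmnat3* (NCBI gene 74080, chr9:98287433-98420533, plus strand) stayed under an FPKM of 1 in all 6 libraries. FPKM values of 0.934, 0.507 and 0.528 were found without the drug, and of 0.860, 0.377 and 0.733 with aminophylline, with 101, 23 and 54 reads against 78, 30 and 72. The groups interleaved, with a mean of 0.657 ± 0.241 (SD, n = 3) and 0.656 ± 0.250 (SD, n = 3). It did not reach the expression filter. With all listed genes fitted, the log2 fold change was -0.0021 (limma adjusted p = 0.997).

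As single values the 10 genes gave two-sided exact permutation p-values of 0.2 to 1, where 3 libraries against 3 cannot go below 0.1. The lowest, 0.2, was that of *Sirt7* and of *Sirt4*.

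The spread between libraries of a group differed from gene to gene. For *Sirt1* the coefficient of variation between control libraries was 60.7%, where the number of reads alone would give 6.98%. For *Sirt7* it was 33.6% in the control group, where the reads would give 3.01%, and 4.51% in the aminophylline group, where they would give 2.31%. *Sirt4* had 4.13% in the control group, near the 4.45% of counting, and 6.99% in the aminophylline group, where counting would give 4.22%. *Nmnat3*, with the fewest reads, had 36.7% and 38.1%, control group first, with 15.5% and 14.1% from counting. Counting error assumes that each read is an independent molecule, which PCR copies are not. Of the 9 tested genes, 7 had the larger SD in the control group on the log2 scale, all but *Sirt4* and *Nmnat1*, beside 74.7% of all tested genes. Control library 1 held the lowest value of 6 of the 10 genes (*Sirt1*, *Sirt2*, *Sirt3*, *Sirt5*, *Sirt7* and *Nmnat1*) and the highest of 3 (*Sirt4*, *Nampt* and *Nmnat3*). Of all tested genes, 27.2% were lowest and 14.5% highest in that library.

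**Figure D4:**
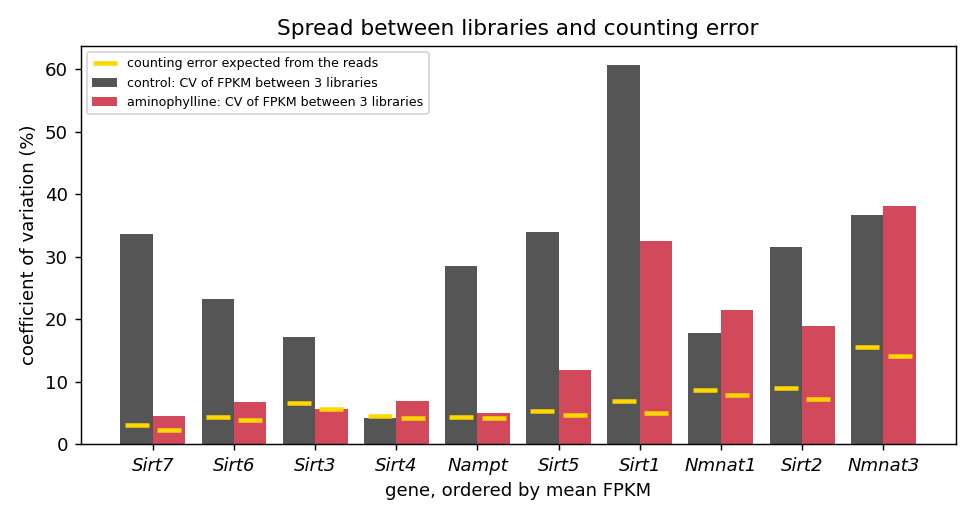
Coefficient of variation of FPKM between the 3 libraries of a group (bars, grey for control and red for aminophylline) and the value that the read numbers alone would give (yellow marks), per gene. The largest bar is that of *Sirt1* in the control group (60.7%), and the control bar of *Sirt4* (4.13%) lies at its counting mark.

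Within the family, *Sirt7* accounted for 39.0%, 48.4% and 48.8% of the summed sirtuin FPKM in control and 53.5%, 51.7% and 52.6% with aminophylline. The summed FPKM of the 7 sirtuins was 59.2 ± 14.2 (SD, n = 3) for control and 69.2 ± 3.79 (SD, n = 3) for aminophylline. Without *Sirt7*, the nuclear pair *Sirt1* and *Sirt6* summed to 12.5 ± 3.79 (SD, n = 3) and 12.6 ± 1.85 (SD, n = 3). These sums were formed after the values were seen and were not tested. The 3 tested genes whose values ran most like those of *Sirt7* over the 6 libraries were *Ckb*, *Nxn* and *Tmem214*, with Pearson correlations of log2(FPKM + 1) of 0.998, 0.997 and 0.994. With 6 libraries and 10340 genes such values are a description only.

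Other genes of NAD+ metabolism were read from 4 lists. Of 14 further synthesis genes, 12 were in the table and 6 were tested, and 1 of them, *Naprt*, which starts NAD+ synthesis from nicotinic acid, was higher at an unadjusted limma p under 0.05, beside 4.41% of all tested genes. In the control libraries its FPKM was 0.377, 0.787 and 1.25, and with aminophylline it was 1.63, 1.99 and 1.26. The groups did not overlap, though the highest control value (1.25) lay just under the lowest aminophylline value (1.26), and in this direction 7.51% of the tested genes did not overlap either. Its log2 fold change was 0.56 with a standard error of 0.22 (limma adjusted p = 0.682). The other 5 did not pass. The 2 with the highest means were *Tdo2*, which opens the route from tryptophan, with a log2 fold change of 0.065, and *Nadsyn1*, the NAD+ synthetase, with -0.14. The median log2 fold change of the 6 genes was 0.15.

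Of 5 genes for NAD+ phosphorylation, transhydrogenation and transport, 2 were tested and none passed in either direction, beside the same 7.25% of all tested genes. *Nadk*, the NAD+ kinase, had a mean FPKM of 12.4 ± 3.96 (SD, n = 3) for control and 12.6 ± 0.642 (SD, n = 3) for aminophylline. *Slc25a51*, the mitochondrial NAD+ carrier, differed by -0.17 on the log2 scale (limma adjusted p = 0.835). Of 15 other NAD+-consuming genes, 14 were in the table, 4 were tested and none passed, beside 2.84% of all tested genes that were lower. *Parp2*, a DNA repair enzyme with the highest mean of this list, had FPKM values of 11.6, 10.2 and 10.4 without the drug and of 9.51, 8.68 and 8.93 with aminophylline. In 2 of the 4 tested genes, *Parp2* and *Parp16*, the groups did not overlap, with lower values in the aminophylline group, as was so for 4.96% of the tested genes. For *Parp2* the log2 fold change was -0.23 (limma adjusted p = 0.764). *Parp16*, named after its values were seen, had FPKM values of 1.21, 1.52 and 1.90 in control and of 1.13, 1.02 and 1.14 with the drug (log2 fold change -0.27, limma adjusted p = 0.728). *Parp1* differed by 0.45 on the log2 scale (limma adjusted p = 0.694). *Cd38*, an NAD+ glycohydrolase, did not exceed an FPKM of 0.0235 in any library.

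Of 20 genes for proteins that sirtuins act on, 15 were tested and none passed in either direction, beside 7.25% of all tested genes. Their median log2 fold change was 0.19, that of all tested genes 0.095. *Ndufa9*, a complex I subunit, had the highest mean over the 6 libraries. It was 182 ± 22.8 (SD, n = 3) for control and 213 ± 16.7 (SD, n = 3) for aminophylline. Its log2 fold change was 0.23 (limma adjusted p = 0.728). *G6pdx*, which supplies NADPH, came next, with 199.8 ± 45.1 (SD, n = 3) for control and 172 ± 17.3 (SD, n = 3) for aminophylline.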

How the data were processed

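Per the labels, total RNA of the oocytes was made into libraries with a VAHTS Universal V6 kit. The authors deposited 1 FPKM value per gene and library, that is, fragments divided by transcript length and library total. The aligner, the counter and the annotation are not given in the sources used here. The submitters' processing notes name GRCm38 and mm10, so coordinates and promoter sequences were taken from RefSeq on GRCm38.p6. All 10 genes matched by NCBI gene number.

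Whole reads were recovered from ratios of FPKM between libraries for 99.99% of the 22583 genes with 2 or more values above 0 (within 1e-05 of a whole number). Depth ran from 14112341 to 33641283, and counting errors were taken from these reads.

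Values were tested as log2(FPKM + 1) with limma 3.58.1 in R 4.3.3 (moderated variance with a trend, two-sided, all 6 libraries, group as the only term), the moderated form of the unpaired test that the paper names. The 10340 genes tested were those that reached 1 FPKM in 3 or more libraries. Adjustment was by Benjamini-Hochberg over all of them. A pseudocount of 1 understates fold changes of low genes. Code was tested on simulated reads. Neighbouring levels were compared by exact permutation (scipy 1.17.1, Python 3.11.15).

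Both groups carry the numbers 1 to 3. Over the tested genes, the deviations from the group means of libraries with the same number correlated at 0.138, 0.140 and 0.552, and control 2 with aminophylline 1 at 0.423. All same-number values were over 0.1, but so was that other value, so the numbers are not shown to be pairs. A fit with the replicate block was used beside the main one, though neither labels nor paper name a shared origin.

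The named genes were the 10 genes, pathway-list genes with an unadjusted p under 0.05 or among the 2 highest means of a list, and the 3 genes most like *Sirt7*. *Parp1* falls under the 2 highest means. *Cd38* was named after its values were seen, as were single cell-type markers. Genes and lists were chosen with earlier results of these data known. The alternatives were a pseudocount of 0.1, no filter, a mean FPKM filter of 5, equal sums (TPM), quantile normalization, median centring, an unmoderated model, voom on recovered reads, the replicate block and leaving out each library.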

Additional observations from a re-analysis of the deposited data

How the results depend on the processing

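Of the 131 refitted fold changes of the 9 tested genes, 119 kept their direction and their side of an unadjusted p of 0.05. The value reversed for *Sirt5* with quantile normalization (-0.031) and median centring (-0.013). It reversed for *Nmnat1* with equal sums (TPM, -0.020), quantile normalization (-0.10) and median centring (-0.068). With 1 library left out, the log2 fold change of *Sirt5* ranged from -0.10 to 0.28, that of *Sirt6* from -0.26 to 0.049 and that of *Nmnat1* from -0.11 to 0.11, and the cause was not tested. The intervals of these genes all held 0. The number of the 9 tested genes with an unadjusted p under 0.05 was 0, was 1 with the replicate block, and ranged from 0 to 2 with 1 library left out, 2 being without control library 3.

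Over all tested genes, 456 were higher and 294 lower at that threshold. With the replicate block these were 1022 and 445, without a filter 917 and 487. Higher genes numbered 294 with the mean filter of 5 FPKM, 281 with TPM and 281 with median centring, and lower genes 528 under quantile normalization and 502 under median centring. With 1 library left out they ranged from 203 to 1219 higher and from 126 to 752 lower. Higher genes made up 60.8% of the calls as deposited, 49.0% with TPM, 39.7% under quantile normalization and 35.9% under centring. The replicate block changed no call of the 9 tested genes other than that of *Sirt7*, and *Nmnat3* was fitted without a filter only.

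The order of the 10 genes by mean had 9 neighbouring pairs, of which 8 kept their order in the control libraries alone and 7 in the aminophylline libraries alone. Both groups were part of the mean that set the order, so such agreement is partly built in. Counting error was largest for *Nmnat3*, and with 3 libraries a group the intervals are wide for all 10 genes.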
